A study of Mus musculus with 20 samples.

Results

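The 9 genes described here encode scaffold proteins of the postsynaptic density: Shank1, Shank2 and Shank3, Dlg2 and Dlg4, and Dlgap1, Dlgap2, Dlgap3 and Dlgap4. They were taken from the table by gene name, and make up 9 of its 24411 genes. These genes, and the further gene lists used below, were chosen with earlier results of these data known. All 9 passed the filter on low counts, which left 15284 genes for testing. Dlgap2 passed it only through the groups where its level was high, as given below. Cultured granule neurons of the mouse cerebellum, its most numerous excitatory nerve cells, were profiled by RNA sequencing to ask whether the enzymatic domain of KDM6B restores synaptic gene expression after knockdown of Kdm6b. Each of 4 groups had 5 libraries, numbered 1 to 5. One group carried an shRNA against mouse Kdm6b (shKdm6b), another this shRNA together with the enzymatic domain of human KDM6B in active form (active rescue), another this shRNA with the domain in dead form (dead rescue), and the last was control. Neurons were infected on day 1 in vitro, received the antimitotic AraC on day 2 and were collected on day 7. The labels give neither the virus used in control nor the strain or age of the animals. Nor do they state separate cultures or animals for the libraries of a group, so the p-values refer to the spread among these libraries, which may be technical.

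The postsynaptic density is the protein meshwork beneath the membrane of excitatory synapses. Dlg4 (PSD-95) and Dlg2 (PSD-93) lie nearest the membrane and bind NMDA receptors and AMPA receptor auxiliary subunits through PDZ domains. The Dlgap proteins (SAPAP or GKAP) bind the guanylate kinase domain of the Dlg proteins, and the Shank proteins bind the Dlgap proteins and connect them to Homer and to actin. Kdm6b encodes a histone demethylase that removes repressive methyl groups from histone H3, a mark carried mostly by promoters rich in CG dinucleotides.

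In GENCODE M21 on GRCm38 all 9 genes lie on the plus strand. Shank3 spans 60.6 kb on chromosome 15 (89499623 to 89560261), and Dlgap1 spans 852.3 kb on chromosome 17 (69969073 to 70821413). The other spans run from 30.6 kb for Dlg4 to 1972.6 kb for Dlg2. Whether reads were counted by strand is not given, and 2.95% of the exon bases of Shank3 and 0.514% of those of Dlgap1 overlap an antisense gene, so reads from these bases cannot be assigned to one strand. The RefSeq promoter table for GRCm38.p6 held 11 windows for 6 of the 9 genes, each window covering 250 bases before and 50 bases after a transcript start. Windows on the plus strand are shown, with every CG dinucleotide in capitals: those of Shank3 and Dlgap1, the scaffold genes with the largest decreases past the test below, and that of Dlgap4, whose level was the steadiest. They are Shank3 at chr15:89499358-89499657, 2 windows of Dlgap1 at chr17:69968823-69969122 and chr17:70561497-70561796, and Dlgap4 at chr2:156720715-156721014.
Shank3: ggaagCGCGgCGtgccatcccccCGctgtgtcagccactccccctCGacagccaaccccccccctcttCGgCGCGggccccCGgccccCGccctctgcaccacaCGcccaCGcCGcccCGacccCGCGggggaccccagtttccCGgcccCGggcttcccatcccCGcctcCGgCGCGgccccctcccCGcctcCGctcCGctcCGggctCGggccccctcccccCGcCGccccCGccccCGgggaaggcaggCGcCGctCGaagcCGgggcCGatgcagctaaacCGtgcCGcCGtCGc
Dlgap1 upstream start: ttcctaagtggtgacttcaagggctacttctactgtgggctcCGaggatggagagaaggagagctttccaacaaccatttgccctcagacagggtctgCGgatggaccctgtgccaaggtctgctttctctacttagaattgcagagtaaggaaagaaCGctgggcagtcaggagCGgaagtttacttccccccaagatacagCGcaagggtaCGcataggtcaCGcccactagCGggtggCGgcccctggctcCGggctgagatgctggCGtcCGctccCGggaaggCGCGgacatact
Dlgap1 internal start: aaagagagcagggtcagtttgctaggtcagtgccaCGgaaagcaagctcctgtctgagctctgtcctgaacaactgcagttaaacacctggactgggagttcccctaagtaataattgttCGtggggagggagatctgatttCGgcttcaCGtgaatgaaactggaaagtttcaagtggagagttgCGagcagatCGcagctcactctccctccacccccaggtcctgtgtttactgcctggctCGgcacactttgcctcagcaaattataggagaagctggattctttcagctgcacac
Dlgap4: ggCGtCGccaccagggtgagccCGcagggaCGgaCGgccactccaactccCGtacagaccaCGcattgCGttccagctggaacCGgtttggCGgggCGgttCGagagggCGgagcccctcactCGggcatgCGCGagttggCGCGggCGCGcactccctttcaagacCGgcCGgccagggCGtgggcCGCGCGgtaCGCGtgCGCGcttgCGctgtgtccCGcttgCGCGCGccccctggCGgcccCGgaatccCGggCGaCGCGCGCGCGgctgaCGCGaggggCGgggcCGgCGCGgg
The Shank3 window held 40 CG dinucleotides, and 3.91% of all 32851 windows held as many or more. The Dlgap1 windows held 15 and 7, which 34.6% and 52.1% of windows reached, against a median of 7. The Dlgap4 window lies at a start inside the gene, whose annotated span begins at 156613705 on chromosome 2. It held 50, reached by 0.855% of windows. The windows not shown held 3, 1 and 2 for Dlg2, 5, 12 and 16 for Dlg4 and 2 for Dlgap3. The windows shown were picked by the results below, and a link between CG content and change was not tested. A count of CG dinucleotides describes the sequence and is no measure of any mark.

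Total estimated counts ran from 14200745 to 21179300 per library, and 16874 to 17355 genes were detected. Levels are CPM, counts scaled to library size with TMM factors. Same-numbered libraries resembled one another: in all 30 same-numbered pairs the deviations from the group means were correlated across genes (Pearson r 0.361 to 0.881), so paired fits carry the number as a block. Libraries numbered 1 to 3 held 2.43 to 7.24% of counts in the ribosomal RNA precursor Rn45s, and those numbered 4 and 5 held 0.206 to 0.611%. Of the granule neuron markers, Gabra6 stood at 34.7 to 275 CPM and Zic1 at 260 to 1266 CPM, while the Purkinje cell marker Pcp2 was at 0 in all 20 libraries. The other 6 of the 7 Purkinje and GABAergic markers were detected in each library, among them Gad1 at 51.1 to 228 CPM and Gad2 at 14.6 to 48.0 CPM. Markers of astrocytes and fibroblasts were also present, with summed levels of 2358 to 15677 CPM and 3297 to 23847 CPM. Summed markers were 137 to 1283 CPM for microglia, 87.0 to 918 CPM for the oligodendrocyte lineage, 113 to 379 CPM for Purkinje and GABAergic neurons and 5.92 to 18.6 CPM for unipolar brush cells. The libraries numbered 4 stood apart, with granule neuron markers summing to 1868 to 3029 CPM. Many scaffold gene results are given with and without them, and fold changes of the further gene lists only with them. The targeted gene Kdm6b stood at 99.4, 112, 89.3, 37.9 and 76.4 CPM in shKdm6b 1 to 5, and at 141, 171, 139, 81.2 and 187 CPM in control 1 to 5. It was lower in shKdm6b in 5 of 5 pairs. Kdm6b averaged 212 ± 109 CPM in the active rescue and 176 ± 92.2 CPM in the dead rescue (SD, n = 5 each). It stood at 290, 312, 266, 73.2 and 119 CPM in active rescue 1 to 5. In dead rescue 1 to 5 it stood at 272, 250, 192, 54.9 and 109 CPM. Both rescues thus lay above control in numbers 1 to 3 and below it in numbers 4 and 5. Reads from the human domain may be counted under the mouse gene.

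The first comparison asked which scaffold genes changed with knockdown. Dlgap1 and Shank3 were lower in shKdm6b than in control, by 0.82 and 0.68 on the log2 scale in the paired fit. They passed the test there, and the other 7 scaffold genes did not. Paired estimates for Shank1, Shank2 and Dlg4 lay within 0.13 of 0 on the log2 scale, Dlgap4 had a narrow interval around 0, and Dlgap2 was near the limit of detection. Across the 9 genes 2 were called lower and 0 higher in the paired edgeR fit, where 2.41% of all tested genes were called lower and 1.72% higher (4.14% in either direction). Since the genes were chosen with earlier results known, these shares are a description and no independent comparison. The median log2 fold change was 0.03 over the 9 genes and 0.01 over all tested genes. Without pairing, edgeR called 0 of the 9, 0 had an unadjusted p under 0.05, and DESeq2 also called 0, while 0.00654% of all tested genes were called by edgeR. Of the 9 genes 3 were lower in 5 of 5 same-numbered pairs, against 11.9% of all tested genes, and 1 was higher in 5 of 5 pairs, against 12.9%. The 1 higher gene was Dlgap2, which passed the filter on low counts only through groups where it was high. No scaffold gene had groups that did not overlap, a property of 0.857% of all tested genes.

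**Figure D1:**
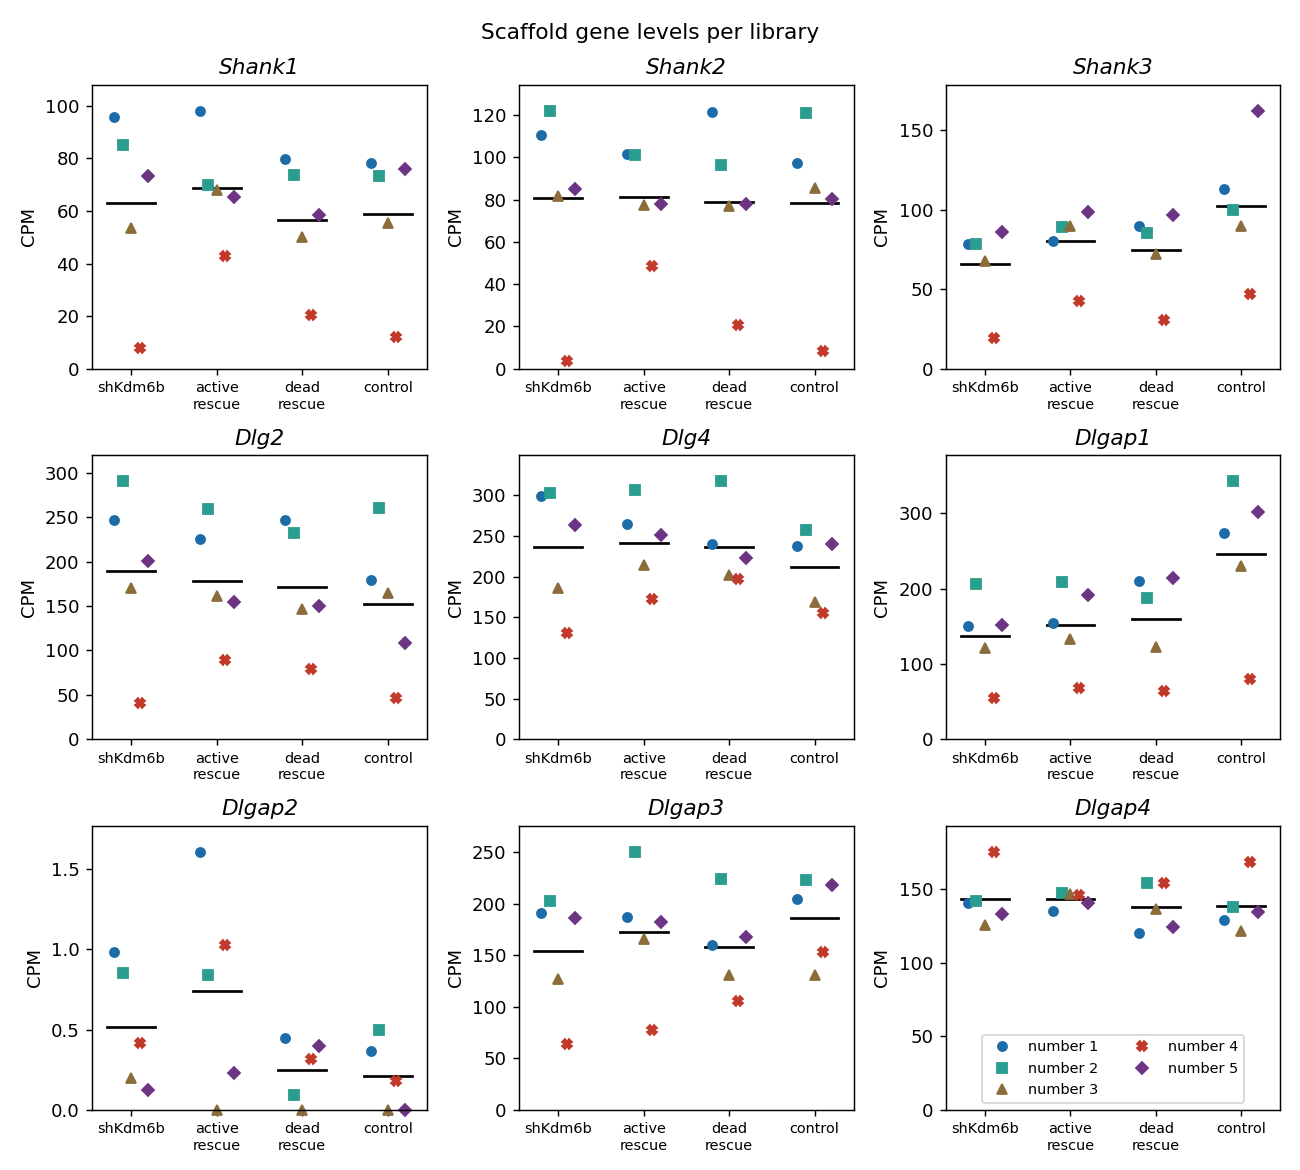
Level of each scaffold gene in every library, in TMM-scaled CPM on linear axes that start at 0, with groups along the x axis, 1 marker shape per library number and a line at the mean of 5 libraries. Shank3 and Dlgap1 show lower means in shKdm6b (66.0 and 137 CPM) than in control (102 and 246 CPM), the crosses of libraries numbered 4 lie low in most panels, and Dlgap4 is nearly level across all groups.

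Shank3, the Shank protein tied in humans to Phelan-McDermid syndrome, stood at 78.4, 78.6, 67.7, 19.6 and 85.7 CPM in shKdm6b 1 to 5 and at 113, 99.6, 89.8, 47.2 and 162 CPM in control 1 to 5. Every shKdm6b library lay below the control library of its number, but the groups overlapped, since control 4 was lower than 4 of the shKdm6b libraries. The paired log2 fold change was -0.68 ± 0.13 (SE; 95% interval -0.95 to -0.41; edgeR adjusted p = 0.00578), or 0.624 of the control level. Without pairing it was -0.63 ± 0.37 (edgeR adjusted p = 1). By number, the log2 difference was -0.53, -0.34, -0.41, -1.26 and -0.92, so the drop was deepest in pairs 4 and 5. Without the libraries numbered 4 the paired fold change was -0.58 (edgeR adjusted p = 0.00185), and with numbers 1 to 3 alone it was -0.42 (edgeR adjusted p = 0.0404). These are bulk libraries, in which fewer cells of a type and less RNA per cell cannot be told apart. The granule neuron markers summed to 1868 to 7045 CPM in shKdm6b (median 6136 CPM) and to 2594 to 7266 CPM in control (median 6069 CPM). The sum was lower in shKdm6b in 4 of 5 pairs. Of the 12 granule neuron markers, 6 were lower in 5 of 5 pairs and 1 was higher, against 11.9% and 12.9% of all tested genes, and in the paired edgeR fit 4 were called lower (Cbln3, Etv1, Grin2c and Slc17a7) and 1 higher (Pax6). The summed markers of meningeal fibroblasts and of Purkinje and GABAergic neurons were lower in shKdm6b in 5 of 5 pairs, and those of unipolar brush cells were higher in 5 of 5. Gad1 and Slc32a1 of the GABAergic markers were called lower. So was Tmem119, and no other of the 9 microglia markers was called. The sums of astrocyte, microglia and oligodendrocyte lineage markers were each lower in 3 of 5 pairs and higher in 2. The part of these markers in the Shank3 and Dlgap1 values was not tested.

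Shank1, which binds Dlgap proteins in the same way, did not pass the test. Its levels were 95.6, 85.2, 53.7, 8.01 and 73.2 CPM in shKdm6b 1 to 5 and 78.1, 73.4, 55.5, 11.9 and 75.8 CPM in control 1 to 5. The groups overlapped throughout, and the paired log2 fold change was 0.03 ± 0.26 (SE; edgeR adjusted p = 0.981). Shank2, a Shank gene known for its role in Purkinje and other neurons, was at 111, 122, 81.8, 3.82 and 85.0 CPM in shKdm6b 1 to 5 and at 97.3, 121, 85.5, 8.50 and 80.2 CPM in control 1 to 5. The paired log2 fold change of Shank2 was -0.03 ± 0.38 (SE; edgeR adjusted p = 0.984). With all libraries the paired 95% intervals were -0.53 to 0.59 for Shank1 and -0.84 to 0.78 for Shank2. The Shank2 interval includes the Shank3 value of -0.68. Without the libraries numbered 4 the intervals narrowed to -0.13 to 0.28 for Shank1 and -0.15 to 0.21 for Shank2. These do not reach the Shank3 value of -0.58 from the same libraries. The difference in response between Shank3 and the other Shank genes was not itself tested.

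The share of each Shank gene in the family, taken per kilobase of exon, was compared within each library. Shank3 made up 30.6, 30.6, 36.7, 65.7 and 38.6% of Shank family RNA in shKdm6b 1 to 5, and 42.8, 37.3, 42.5, 72.7 and 54.6% in control 1 to 5. The share was smaller in shKdm6b in each numbered pair. It ran from 31.8 to 44.3% in the active rescue (median 37.8%) and from 34.1 to 46.0% in the dead rescue (median 39.6%), against a median of 42.8% in control. These shares depend on the exon lengths used and carry no test.

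The membrane-proximal scaffolds did not pass the test. Dlg4 (PSD-95), the most studied of the family, stood at 299, 303, 186, 130 and 264 CPM in shKdm6b 1 to 5 and at 237, 257, 169, 155 and 239 CPM in control 1 to 5. It was higher in shKdm6b in 4 of 5 pairs, with a paired log2 fold change of 0.13 ± 0.10 (SE; 95% interval -0.09 to 0.34; edgeR adjusted p = 0.642). Dlg2 (PSD-93) was at 247, 290, 170, 41.3 and 200 CPM in shKdm6b 1 to 5 and at 179, 260, 165, 46.4 and 108 CPM in control 1 to 5. Its paired log2 fold change was 0.30 ± 0.18 (SE; edgeR adjusted p = 0.477), and 0.35 ± 0.11 without the libraries numbered 4 (edgeR adjusted p = 0.0789). Neither gene had a lower mean in shKdm6b, unlike Shank3 and Dlgap1.

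Dlgap1, the family member first described as a binding partner of PSD-95, showed the largest paired decrease of the 9 genes. It stood at 150, 206, 121, 54.9 and 152 CPM in shKdm6b 1 to 5 and at 274, 342, 230, 80.1 and 301 CPM in control 1 to 5. Every control library but number 4 lay above all 5 shKdm6b libraries. The paired log2 fold change was -0.82 ± 0.10 (SE; 95% interval -1.04 to -0.59; edgeR adjusted p = 0.000355), or 0.568 of the control level. Without pairing it was -0.84 ± 0.40, with an unadjusted p of 0.0508 and an edgeR adjusted p of 1. The difference by number was -0.87, -0.73, -0.92, -0.55 and -0.99 on the log2 scale, a spread of 0.18 (SD of 5 pairs), and it was -0.90 in the paired fit without the libraries numbered 4 (edgeR adjusted p = 5.93e-05). Of Dlgap family RNA per kilobase of exon, Dlgap1 made up 12.6 ± 2.80% in shKdm6b and 18.8 ± 6.32% in control (SD, n = 5 each). In pair 4 alone this share was larger in shKdm6b, at 8.06%, than in control, at 7.69%.

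Dlgap3, a family member whose loss in mice causes compulsive grooming, stood at 191, 203, 127, 64.0 and 186 CPM in shKdm6b 1 to 5 and at 205, 223, 131, 153 and 218 CPM in control 1 to 5. It was lower in 5 of 5 pairs, but pair 4 differed by -1.25 and the other 4 pairs by -0.23 to -0.04 on the log2 scale. The paired log2 fold change was -0.36 ± 0.15 (SE; unadjusted p = 0.0328; edgeR adjusted p = 0.271), and without the libraries numbered 4 it was -0.16 ± 0.09 (edgeR adjusted p = 0.357). Dlgap4, a more broadly expressed family member, averaged 144 ± 19.2 CPM in shKdm6b and 138 ± 18.0 CPM in control (SD, n = 5 each). Its paired log2 fold change was 0.05 ± 0.08 with a 95% interval of -0.11 to 0.21 (edgeR adjusted p = 0.849), so the interval does not include a decrease of the size seen for Dlgap1. Dlgap2, the remaining member, had estimated counts of 18, 16, 4, 9 and 2 in shKdm6b 1 to 5 and of 7, 10, 0, 3 and 0 in control 1 to 5. A count of 0 allows up to 3 counts, or 0.177 and 0.175 CPM in control 3 and 5. Dlgap2 was higher in 5 of 5 pairs, with a paired log2 fold change of 1.34 ± 0.67 (SE; edgeR adjusted p = 0.366), and its groups overlapped. It passed the filter on low counts only through shKdm6b 1 and 2 and active rescue 1, 2 and 4 (0.818 to 1.58 CPM on unscaled totals). The highest such values were 0.485 in control and 0.434 in the dead rescue. The filter thus favoured higher values in shKdm6b and the active rescue, so these differences are no evidence of a change.

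**Figure D2:**
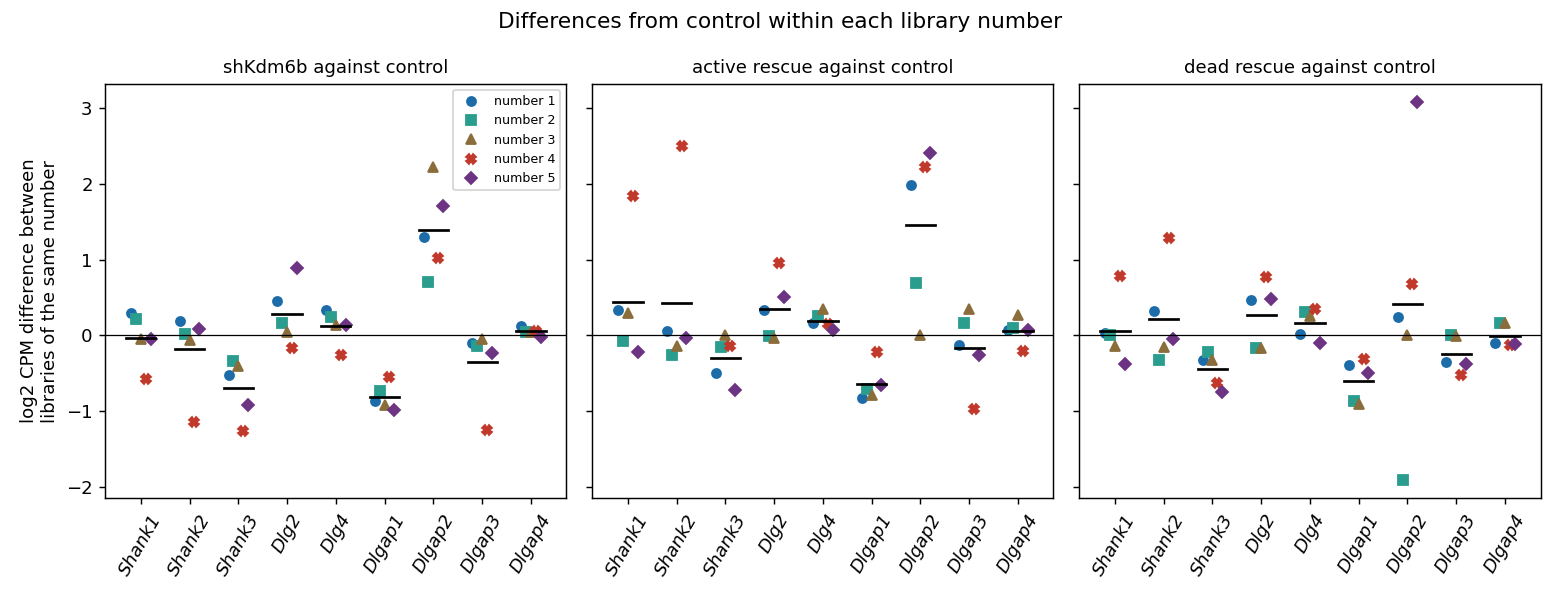
Difference in log2 CPM of each scaffold gene between the library of shKdm6b (left panel), the active rescue (middle) or the dead rescue (right) and the control library of the same number, with 1 marker shape per number and a line at the mean of the 5 differences. In the left panel all 5 markers of Shank3, Dlgap1 and Dlgap3 lie below 0, those of Dlgap1 within -0.99 to -0.55, while Dlgap3 spreads from -1.25 to -0.04.

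The next comparisons asked whether either domain moved the scaffold genes away from their shKdm6b levels. In the paired edgeR fit 0 of the 9 genes were called in the active rescue against shKdm6b and 0 in the dead rescue against shKdm6b, where 0.00654% and 0% of all tested genes were called. An unadjusted p under 0.05 was found for 1 gene in each, Shank3 in the active rescue and Dlgap1 in the dead rescue. Over all 15284 tested genes it was found for 577 and 214. Paired DESeq2 also called 0 of the 9 in each. Without pairing edgeR and DESeq2 called 0 of the 9, with 0 unadjusted p-values under 0.05 in edgeR. The paired estimates against shKdm6b were above 0 for 9 of 9 genes in the active rescue (median 0.18 on the log2 scale), where 54.0% of all tested genes were above 0 (median 0.01), but for 5 of 9 without the libraries numbered 4 (median 0.08, with 50.6% of all tested genes above 0). In the dead rescue they were above 0 for 5 of 9 (median 0.04), where 49.1% of all tested genes were, and for 2 of 9 without the libraries numbered 4 (median -0.09, with 50.8% of all tested genes above 0).

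Shank3 in the active rescue stood at 80.4, 89.3, 89.7, 42.8 and 98.4 CPM in libraries 1 to 5, and in the dead rescue at 89.9, 85.2, 71.8, 30.5 and 96.6 CPM. Each of these was above the shKdm6b library of its number, in 5 of 5 pairs for both domains, where 2.66% of all tested genes were higher in 5 of 5 pairs in the active rescue and 1.73% in the dead rescue. The paired log2 fold change against shKdm6b was 0.38 ± 0.13 in the active rescue (SE; unadjusted p = 0.00945; edgeR adjusted p = 0.975). Without the libraries numbered 4 it was 0.21 ± 0.10 (SE; 95% interval -0.000319 to 0.43; edgeR adjusted p = 0.686). Pair 4 differed by 1.12 on the log2 scale and the other 4 pairs by 0.04 to 0.41. For the dead rescue it was 0.22 ± 0.13 (SE; 95% interval -0.05 to 0.50; edgeR adjusted p = 1), and 0.15 without the libraries numbered 4. The 2 rescues differed from each other by 0.16 ± 0.13 (SE; 95% interval -0.12 to 0.43; edgeR adjusted p = 1), and by 0.06 ± 0.10 without the libraries numbered 4. Neither estimate passed the test, and the interval of the difference between the domains includes 0.

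Dlgap1 in the active rescue stood at 155, 209, 133, 68.5 and 192 CPM in libraries 1 to 5, and in the dead rescue at 210, 187, 122, 64.2 and 214 CPM. Their ranges overlapped that of shKdm6b almost entirely. Against shKdm6b the paired log2 fold change was 0.17 ± 0.10 in the active rescue (SE; 95% interval -0.05 to 0.39; edgeR adjusted p = 1) and higher in 5 of 5 pairs. For the dead rescue it was 0.22 ± 0.10 (SE; 95% interval 0.00130 to 0.44; unadjusted p = 0.0488; edgeR adjusted p = 1) and higher in 4 of 5 pairs. Between the active and the dead rescue Dlgap1 differed by -0.05 ± 0.10 (SE; 95% interval -0.27 to 0.17; edgeR adjusted p = 1). Both upper bounds against shKdm6b are smaller than the 0.82 by which Dlgap1 lay below control in shKdm6b.

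Between the active and the dead rescue, paired edgeR called 0 of the 9 genes, where 0.00654% of all tested genes were called. The single unadjusted p under 0.05 was that of Dlgap2 (0.04), where 415 of all 15284 tested genes had one. DESeq2 called 0 with and without pairing, and edgeR without pairing called 0 with 0 unadjusted p-values under 0.05. Dlgap2 had estimated counts of 33, 17, 0, 21 and 4 in the active rescue and of 9, 2, 0, 5 and 6 in the dead rescue, for libraries 1 to 5. Its paired log2 fold change was 1.43 ± 0.64 (SE; edgeR adjusted p = 1), and at such counts the level is poorly measured. Dlgap2 passed the filter on low counts only through shKdm6b and the active rescue, so the filter favoured this direction. Apart from Dlgap2, the paired estimates for the active against the dead rescue lay between -0.05 for Dlgap1 and 0.44 for Shank1. Without the libraries numbered 4 they were 0.20 for Shank1, -0.05 for Shank2 (0.33 with them), -0.09 for Dlgap1 and 0.21 for Dlgap3 (0.09 with them).

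The estimates for Shank1 and Shank2 in the active rescue rested on the libraries numbered 4. Shank1 stood at 98.1, 69.8, 68.0, 43.0 and 65.2 CPM in the active rescue and at 79.9, 73.6, 50.2, 20.6 and 58.5 CPM in the dead rescue, for libraries 1 to 5. Shank2 stood at 101, 101, 77.5, 48.5 and 78.1 CPM in the active rescue and at 122, 96.2, 76.9, 20.8 and 77.7 CPM in the dead rescue. Against shKdm6b the paired log2 fold change in the active rescue was 0.44 ± 0.27 for Shank1 and 0.50 ± 0.40 for Shank2 (SE; edgeR adjusted p = 1 for each). Without the libraries numbered 4 it was -0.01 for Shank1 and -0.15 for Shank2.

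**Figure D3:**
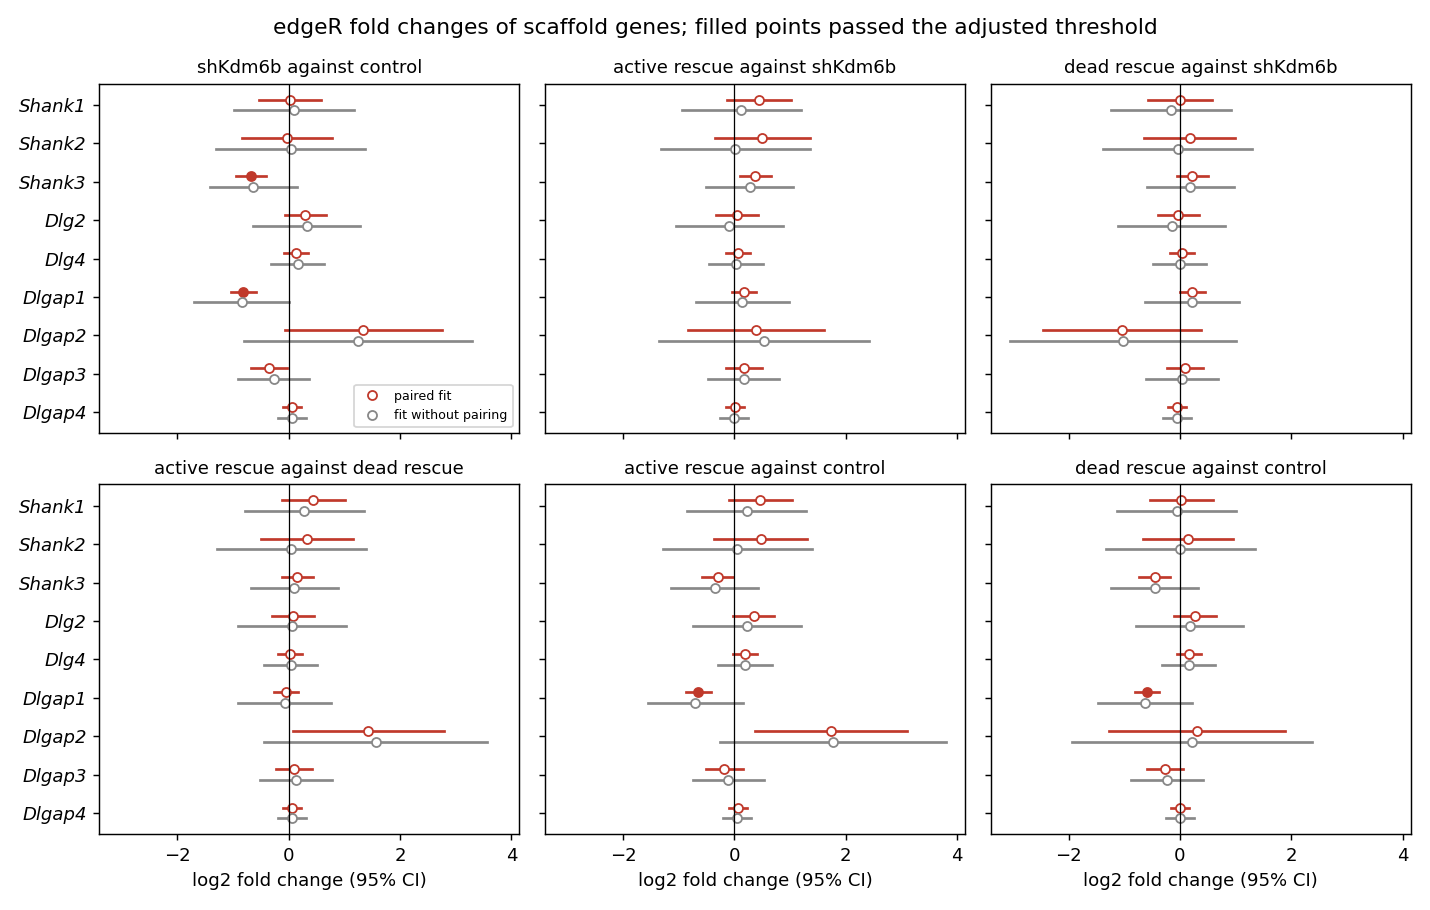
EdgeR log2 fold changes of the 9 scaffold genes with 95% intervals in the 6 comparisons, 1 panel each, from the paired fit (red) and the fit without pairing (grey), with filled points where the adjusted p passed the threshold. In the paired fit Dlgap1 is filled in the 3 comparisons with control, at -0.82, -0.64 and -0.59, Shank3 in shKdm6b against control, and no grey point is filled.

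The rescues were also set against control. These comparisons share the control libraries with the knockdown comparison, so their values are given side by side. Dlgap1 was lower than control in both rescues, by 0.64 ± 0.10 in the active rescue (edgeR adjusted p = 0.00407) and 0.59 ± 0.10 in the dead rescue (edgeR adjusted p = 0.00929), in 5 of 5 pairs each. It was the only one of the 9 genes called, in the paired edgeR fit, against 0.870% of all tested genes called lower in the active rescue (1.09% higher, 1.96% in either direction) and 0.608% in the dead rescue (0.576% higher, 1.18% in either direction). Without pairing edgeR and DESeq2 called 0 of the 9 in each, with 0 unadjusted p-values under 0.05 in edgeR and 0% of all tested genes called. The paired log2 fold change of Shank3 was -0.30 ± 0.13 in the active rescue (SE; edgeR adjusted p = 0.319) and -0.46 ± 0.13 in the dead rescue (SE; edgeR adjusted p = 0.111). Shank3 was below control in 5 of 5 pairs of each rescue, as were 4.50% of all tested genes in the active rescue and 5.65% in the dead rescue. Without the libraries numbered 4 Shank3 passed the test in both, at -0.37 in the active rescue (edgeR adjusted p = 0.0468) and -0.43 in the dead rescue (edgeR adjusted p = 0.0314). In the dead rescue it also passed on leaving out shKdm6b 4 alone (edgeR adjusted p = 0.0269) or active rescue 4 alone (edgeR adjusted p = 0.0401). These libraries are not part of that comparison but share its estimate of spread. Beside these values, the summed granule neuron markers were lower than control in 4 of 5 pairs of each rescue and those of Purkinje and GABAergic neurons in 5 of 5, and those of unipolar brush cells were higher in 4 of 5 pairs of the active rescue and 5 of 5 of the dead rescue. Of the 12 granule neuron markers, 4 were lower in 5 of 5 pairs and 1 was higher in the active rescue. In the dead rescue 6 were lower and 2 higher. The paired edgeR fit called Gad1 lower in the active rescue, and Etv1 and Grin2c lower in the dead rescue. The part of these markers in the scaffold values was not tested.

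The remaining scaffold genes did not pass the test against control in either rescue. In the active rescue the paired log2 fold change was 0.47 ± 0.27 for Shank1 and 0.47 ± 0.40 for Shank2 (SE). Without the libraries numbered 4 it was 0.06 for Shank1 and -0.12 for Shank2. In the dead rescue it was 0.03 for Shank1 and 0.14 for Shank2, and -0.14 and -0.07 without the libraries numbered 4. Dlg4 was higher than control in 5 of 5 pairs in the active rescue, as were 6.83% of all tested genes, at 265, 306, 214, 173 and 251 CPM in libraries 1 to 5. Its paired log2 fold change there was 0.19 ± 0.10 (SE; edgeR adjusted p = 0.448), and 0.17 ± 0.10 in the dead rescue (SE; edgeR adjusted p = 0.643), or 0.10 there without the libraries numbered 4. Dlg2 averaged 178 ± 66.3 CPM in the active rescue and 171 ± 68.8 CPM in the dead rescue, against 152 ± 80.2 CPM in control (SD, n = 5 each). Its paired log2 fold change was 0.35 in the active rescue and 0.27 in the dead rescue, or 0.16 and 0.12 without the libraries numbered 4. Dlgap3 averaged 173 ± 62.0 CPM in the active rescue and 158 ± 44.6 CPM in the dead rescue, against 186 ± 41.6 CPM in control. Its paired log2 fold change was -0.18 in the active rescue and -0.27 in the dead rescue. Without the libraries numbered 4 it was 0.009 and -0.20, so the lower level in the active rescue rested on these libraries. Dlgap4 varied least, at 143 ± 5.31 CPM in the active rescue and 138 ± 16.1 CPM in the dead rescue, against 138 ± 18.0 CPM in control. The Dlgap2 estimate for the active rescue was 1.74 ± 0.64 on the log2 scale (SE; edgeR adjusted p = 0.221). Here too the filter on low counts favoured this direction, since no control library helped Dlgap2 to pass it.

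In shKdm6b, the dead rescue and control, the libraries numbered 4 differed from the rest most in Shank1 and Shank2. As a percentage of the median of the other 4 libraries of the group, Shank2 stood at 3.90% in shKdm6b 4, 54.1% in active rescue 4, 23.9% in dead rescue 4 and 9.30% in control 4. For Shank1 the values were 10.1%, 62.4%, 31.1% and 16.0% in the same order. Shank3 stood at 25.0%, 47.8%, 34.8% and 44.4%, higher than Shank1 and Shank2 except in the active rescue, and Dlg4 was nearer the others, at 46.3%, 67.0%, 85.3% and 65.2%. Dlgap4 went the other way, at 128%, 102%, 118% and 128%. So shKdm6b 4 and control 4 held little Shank2 and a raised level of Dlgap4. In these libraries the summed granule neuron markers stood at 29.9%, 45.7%, 51.0% and 42.5% of the median of the others, and the summed astrocyte markers at 254%, 295%, 247% and 332%, in the same order. All 12 granule neuron markers and all 10 astrocyte markers were detected in each of these libraries. The part of cell content in these values was not tested.

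**Figure D4:**
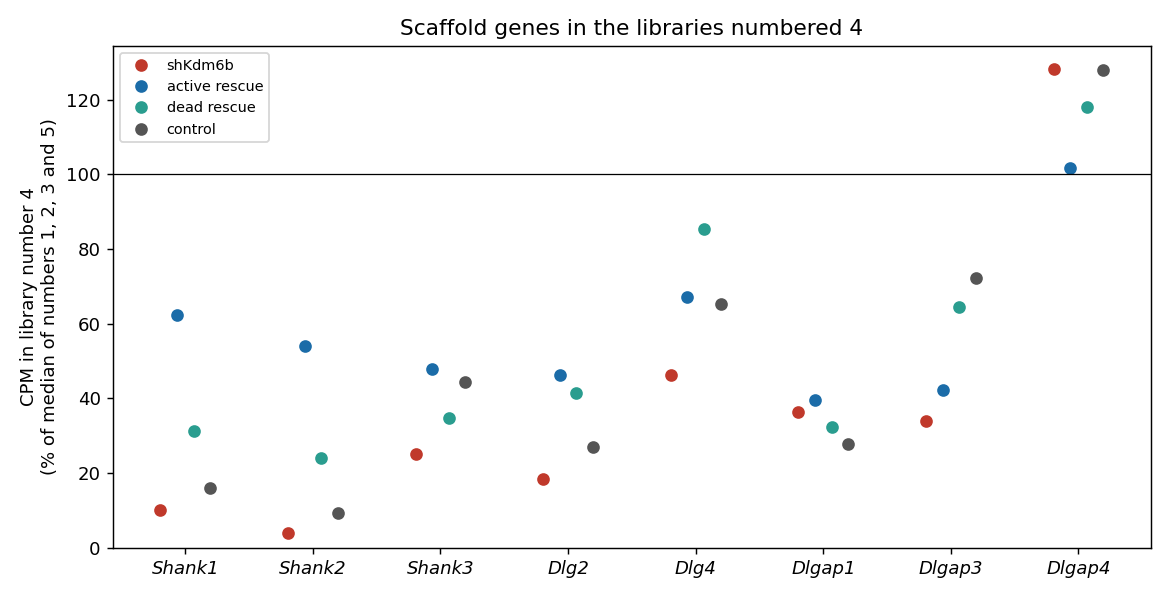
Level of each scaffold gene in the library numbered 4 as a percentage of the median of the other 4 libraries of its group, on a linear axis, with 1 colour per group, a line at 100% and Dlgap2 left out for its low counts. Shank1 and Shank2 lie lowest in shKdm6b (10.1 and 3.90%) and control (16.0 and 9.30%), and Dlgap4 lies at or above 102% in all 4 groups.

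Within number 4 the active rescue library carried more Shank1 and Shank2 than the other 3. Shank2 was 12.7 times as high in active rescue 4 as in shKdm6b 4, with 0.196% of all tested genes showing a larger ratio on the log2 scale with 0.5 CPM added. It was 5.70 times as high as in control 4, where 0.923% of genes showed a larger ratio. Shank1 was 5.37 times as high as in shKdm6b 4 and 3.60 times as high as in control 4. Each of these ratios compares 2 single libraries and has no replicate check. In the other 4 numbers Shank2 was lower in the active rescue than in shKdm6b, by 0.08 to 0.27 on the log2 scale, so pair 4 alone had the opposite direction.

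Levels were compared between genes per kilobase of merged exon length. In control, Dlgap3 was the most abundant at 41.1 ± 9.20 CPM per kb. Dlgap4 followed at 16.4 ± 2.14, Dlg4 at 16.0 ± 3.46, Dlgap1 at 13.7 ± 5.65, Shank3 at 11.1 ± 4.52, Dlg2 at 9.32 ± 4.93, Shank2 at 7.29 ± 3.92 and Shank1 at 5.61 ± 2.64 CPM per kb (SD, n = 5). Apart from Dlgap3 at the top and Dlgap2 at the bottom (0.0339 ± 0.0361 CPM per kb), each neighbour lay within 1 SD of the next. With the length of the longest transcript in place of merged exons, Dlgap3 remained the most abundant in control at 44.2 CPM per kb and Dlgap1 moved to 34.2 CPM per kb, so the middle of the order depends on the length used. In shKdm6b Dlgap1 averaged 7.65 ± 3.08 and Shank3 7.19 ± 2.91 CPM per kb of merged exon, close to Shank2 at 7.49 ± 4.29.

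How the scaffold genes varied together was described by the correlation of their log2 CPM over 20 libraries after the mean of each number was removed. Group means were not removed, so these values, and the most similar genes below, carry the differences between groups given above. Libraries of a group share their treatment, so these values have no test. The same was done without the libraries numbered 4, an alternative chosen after seeing the data, which left 16 libraries. Shank3 varied with Dlgap1 (r = 0.72 over 20 libraries and 0.82 over 16) and with Dlgap3 (r = 0.64 and 0.60). Dlgap1 ran opposite to Dlg4 (r = -0.50 over 20 libraries and -0.80 over 16). The value for Shank1 and Shank2 was 0.94 over 20 libraries but 0.19 over 16, so it rested on the libraries numbered 4. That of Shank1 and Dlg2 was 0.73 and 0.16, and that of Shank2 and Dlg2 0.79 and 0.54. Shank3 with Shank1 gave 0.41 and 0.08, and with Shank2 0.42 and -0.11. Of 11652 genes compared, those most like Shank3 over 20 libraries were Ywhag (r = 0.96, and 0.97 over 16), Spock2 (r = 0.96 and 0.99) and Fam131b (r = 0.93 and 0.94). Those most like Dlgap1 were Slc39a6 (r = 0.98 in both), Adam23 (r = 0.98 in both) and Inpp4a (r = 0.96 in both).

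Other genes of the postsynaptic density were counted in the same paired edgeR fit. These lists too were chosen with earlier results known, so the shares of all tested genes beside their counts are descriptive. Of 38 further scaffolds and adaptors, all tested, 1 was called higher and 1 lower in shKdm6b against control, with a median log2 fold change of -0.06. These are 1 of 38 in each direction, where 1.72% of all tested genes were called higher and 2.41% lower. Homer2, which binds the Shank proteins and group I metabotropic glutamate receptors, rose by 0.41 ± 0.10 (SE; edgeR adjusted p = 0.0327). Lin7a, a small PDZ adaptor, fell by 0.61 ± 0.14 (SE; edgeR adjusted p = 0.0208). In the active rescue against control Homer2 (0.43; edgeR adjusted p = 0.0474) and Nos1 (0.75; edgeR adjusted p = 0.0379), the neuronal nitric oxide synthase bound by PSD-95, were called higher and 0 lower, against 1.09% of all tested genes called higher and 0.870% lower. In the dead rescue against control 0 of 38 were called, against 1.18% of all tested genes called in either direction. An unadjusted p under 0.05 was found there for 6 of 38, and for 1636 of all 15284 tested genes.

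A further list held 28 glutamate receptor subunits, auxiliary subunits, kinases, potassium channels and adhesion partners anchored by these scaffolds. In shKdm6b against control 1 was called higher and 4 lower, where 1.72% of all tested genes were called higher and 2.41% lower. The median log2 fold change of these 28 was 0.01. Camk2a, the alpha subunit of the postsynaptic kinase CaMKII, rose by 2.25 ± 0.22 (SE; edgeR adjusted p = 4.07e-05), and it was the only gene of these lists called without pairing. Grin2c, an NMDA receptor subunit of mature granule neurons that also stands among the granule neuron markers, fell by 1.47 ± 0.28 (SE; edgeR adjusted p = 0.00543). Cacng2 (stargazin), the AMPA receptor auxiliary subunit that binds PSD-95, fell by 0.60 ± 0.11 (SE; edgeR adjusted p = 0.00576). Camk2b, the beta subunit of CaMKII, fell by 0.60 ± 0.12 (SE; edgeR adjusted p = 0.00835), and the adhesion gene Lrrtm3 fell by 0.54 ± 0.13 (SE; edgeR adjusted p = 0.0262).

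Against control, 2 of these 28 were called higher and 0 lower in the active rescue, Camk2a (1.90; edgeR adjusted p = 0.000281) and the adhesion gene Lrrtm1 (1.09; edgeR adjusted p = 0.0161), where 1.09% of all tested genes were called higher and 0.870% lower. For the dead rescue 1 was called higher, Camk2a (1.78; edgeR adjusted p = 0.000729), and 2 lower, Grin2c (-1.22; edgeR adjusted p = 0.0397) and Cacng2 (-0.56; edgeR adjusted p = 0.0238), where 0.576% of all tested genes were called higher and 0.608% lower. Of 6 genes of inhibitory postsynapses, 4 were found in the table, and 1 of these 4 was called in each comparison named next, against the same shares of all tested genes (1.72% and 1.09% higher). Shisa7, an auxiliary subunit of GABA-A receptors, was called higher in shKdm6b (0.79 ± 0.13, SE; edgeR adjusted p = 0.00179) and in the active rescue (0.65; edgeR adjusted p = 0.0127) against control. None of these lists had a member called by edgeR, paired or not, in the comparisons that follow. They are the active rescue against shKdm6b, the dead rescue against shKdm6b and the active against the dead rescue. Unadjusted p-values under 0.05 in the paired edgeR fit there numbered 3, 0 and 3 of 38, 3, 1 and 2 of 28 and 0, 1 and 0 of 4. Over all 15284 tested genes they numbered 577, 214 and 415 in the same order.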

How the data were processed

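RNA was extracted with the RNAqueous Micro Kit and libraries were built by Novogene, per the labels' protocols. The authors deposited 1 table of estimated counts per gene for the 20 libraries. The table's name gives salmon, which estimates counts from reads mapped to transcripts. Per the submitters' processing notes, mm10 was the build. Salmon's version, its annotation, read trimming and use of strand were not given in the sources used here. Deposited columns were unscaled, and 6.22 to 10.2% of values per library were not whole (tolerance 0.001). Of 40 pairs of libraries within groups 0 were identical (chi-square per degree of freedom 28.7 to 410).

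Estimated counts were rounded. Genes were kept with filterByExpr (15284 of 24411) and scaled with TMM factors. The 4 groups were compared in 1 fit with 6 contrasts by edgeR's quasi-likelihood test (edgeR 4.0.16, limma 3.58.1, R 4.3.3), two-sided, Benjamini-Hochberg adjusted over all tested genes, threshold 0.05. The chosen design had no block. A second fit had the library number as a block. All 30 same-numbered pairs had r above the limit of 0.1 (0.361 to 0.881, median 0.608). The 120 pairs with different numbers had a median r of -0.205 and reached 0.572. Each of the 20 libraries had its highest r with a library of the same number, so the numbers were taken to pair the samples. The labels leave the meaning of the number unstated, so the pairing rests on this check. The block lowered the biological coefficient of variation to 0.179 (0.392 without it) and left 12 residual degrees of freedom (16 without it). Log2 CPM used a prior count of 1. Counting error covers reads only.

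DESeq2 1.42.0, other scaling, no filter, left-out libraries and subsets of numbers were tried. Correlations without number 4 were added after seeing the data. Fits were tested on simulated data. Exon lengths came from GENCODE M21 and promoters from RefSeq. All 9 members were named in shKdm6b against control. In most of the other comparisons the values of some members are left out. List members were named where called (up to 6 by smallest p). Similar genes were the 3 with the highest r among those with a mean of at least 5 CPM, leaving out predicted and clone-named genes. Members and lists were chosen with earlier results of these data known.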

Additional observations from a re-analysis of the deposited data

Results flagged for a closer look

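For each scaffold gene and group on the log2 CPM scale, the gap between the extreme library and its nearest neighbour was divided by the range of the 5 libraries. Of 36 gene and group pairs, 10 exceeded Dixon's critical value of 0.710, and in all 10 the library numbered 4 was the lowest of its group. Chance alone gives about 1 in 20 such groups. The 36 pairs reuse the same libraries and are not independent, so 10 of 36 cannot be set against this share.

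For Shank1 the ratio was 0.767 in shKdm6b and 0.818 in control. For Shank2 it was 0.884 in shKdm6b, 0.74 in the dead rescue and 0.845 in control. For Shank3 it was 0.84 in shKdm6b, 0.758 in the active rescue and 0.743 in the dead rescue. Dlg2 reached 0.726 in shKdm6b, and Dlgap1 reached 0.725 in control. Neither Shank1 nor Shank2 exceeded the critical value in the active rescue, where their number 4 libraries were less low. Dlg4, Dlgap2, Dlgap3 and Dlgap4 exceeded it in no group.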

How the results depend on the processing

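In shKdm6b against control the paired fit (replicate block) called 632 genes, 626 with RLE scaling, 944 with DESeq2, 990 without the libraries numbered 4 and 445 with numbers 1 to 3 alone, against 1 without pairing (64 with unpaired DESeq2). The share called higher was 263 of 632, and 225 of 445 with numbers 1 to 3. In the active rescue against control the paired counts were 299, 291 with RLE, 623 with DESeq2, 700 without number 4 and 454 with numbers 1 to 3, against 0 unpaired (29 with DESeq2). For the dead rescue against control they were 181, 179, 455, 378 and 143 in the same order, against 0 (17 with DESeq2). In the active rescue against shKdm6b they were 1, 1, 23, 1 and 17, in the active against the dead rescue 1, 1, 3, 0 and 9, and in the dead rescue against shKdm6b 0 except for 1 with numbers 1 to 3. RLE scaling and no filter left the unpaired counts unchanged.

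Of the 9 scaffold genes, Shank3 and Dlgap1 were called in shKdm6b against control in each of those paired fits (2 in each). In the active rescue against control the paired count was 1, and 2 without number 4. For the dead rescue against control it was 1, and 2 without number 4 or with DESeq2 (Shank3 -0.46, adjusted p = 0.0347). It was 0 in each fit run of the other comparisons.

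Leaving out 1 library at a time gave paired counts of 352 to 912, 0 to 2, 0 to 0, 0 to 2, 128 to 410 and 65 to 348 genes for shKdm6b against control, active rescue against shKdm6b, dead rescue against shKdm6b, active against dead rescue, active rescue against control and dead rescue against control. Unpaired counts were 0 to 11, 0, 0, 0, 0 to 1 and 0 to 2. For the scaffold genes they were 2 to 2 (shKdm6b against control), 1 to 1 (active rescue against control), 1 to 2 (dead rescue against control) and 0 otherwise, and 0 unpaired. In shKdm6b against control the paired count fell most without shKdm6b 1 (414) or 5 (352). In the active rescue it fell without control 1 (149) or 2 (190) or active rescue 1 (128) or 2 (175). In the dead rescue it fell without control 1 (67), 2 (101), 4 (119) or 5 (106) or dead rescue 2 (65), 3 (67), 4 (66) or 5 (113), and rose without shKdm6b 4 (275) or active rescue 4 (348). Over these 20 fits the paired log2 fold change of Shank3 in shKdm6b against control ran from -0.76 to -0.58 (adjusted p 0.00123 to 0.0245) and that of Dlgap1 from -0.91 to -0.77 (adjusted p 0.000103 to 0.00255). Dlgap1 stayed called in the active rescue (adjusted p 0.00183 to 0.0212) and the dead rescue (adjusted p 0.00384 to 0.0467). The cause of these differences was not tested.

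Uncalled fold changes of scaffold genes changed sign in 46 of 432 values with other settings and 222 of 2160 with 1 library left out, and 0 of these had a call on either side. All 36 mean levels moved by less than 1 SD on unscaled totals. Correlations between scaffold genes are given with and without the libraries numbered 4 beside each value. Depth limits Dlgap2 most, at 0 to 33 counts per library.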
